A study of Mus musculus with 20 samples.

Results

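The 40 nucleolar ribosome biogenesis genes described here are the factors that transcribe, modify, cut and fold ribosomal RNA in the nucleolus. They form a list of gene names put together with earlier results of these data known, and no measured value entered the rule for the names. Of the 40 genes 39 were measured, among 18820 genes with a probe set of their own. Measured levels did enter the choice of probe set for the 5 genes with several, where the set of largest average level was kept. Tsr1 was the exception, because its probe set is also annotated to Srr and so was not used. The genes were followed in mouse hypothalamic neuronal cell lines exposed to serotonin, a transmitter known to act on the hypothalamic control of feeding.

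The nucleolus forms around the ribosomal RNA genes, which RNA polymerase I transcribes into 1 long precursor. Small nucleolar RNA particles then modify the precursor, the small subunit processome folds and cuts its leading part, and a separate set of factors assembles the large subunit. The transcription factor MYC is known to activate many of these genes, and cells raise them when they grow.

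Total RNA of 20 samples was hybridised to Affymetrix gene arrays in 5 groups of 4 arrays. The line hypoE-46 (E46), labelled serotonin sensitive, gave controls and cells exposed for 24 h to serotonin labelled 100 and 1 µg/ml. The line hypoA2/12 (A2/12), labelled serotonin unresponsive, gave controls and cells exposed for 24 h to serotonin labelled 100 µg/ml. All groups, controls included, were grown to near confluence in medium with serum and then held in serum-free medium, for 4 h before serotonin was added. Each line is 1 cell line, so a difference between them is a difference between these 2 lines. Doses follow the sample titles. For the E46 serotonin arrays the descriptions give the doses 1 and 100 the other way round, and under those labels the E46 response below would belong to the lower dose.

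The deposited log2 values of any 2 arrays correlated at 0.933 to 0.998 over all genes. The arrays' scan names carry a row letter that follows the order of the groups, so that row cannot be told apart from group between the lines or between the labelled 1 and controls, and a position number (5, 7 or 9) that occurs in every group. A pair of control arrays stood apart in markers of other cell types. The mean level of 8 macrophage and microglia markers was 6.0 in A2/12 control replicate 4 against 4.46 to 4.56 in the other A2/12 controls, and the mean of 7 intestinal epithelium markers was 4.92 in E46 control replicate 3 against 4.31 to 4.38 in the other E46 controls. Of 12 neuron markers 5 or 6 lay above the background level in each group (set by olfactory receptor genes, of which 95% lay below 4.35 to 4.66 depending on the group), among them Map2, Stmn2 and Syt1. Rbfox3, Snap25, Nefl, Nefm, Elavl4 and Dcx did not in any group. Collagen and other mesenchymal markers were above background for 7 of 8 genes in every group, with a median level of 8.66 in E46 controls and 11.03 in A2/12 controls.

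All 39 genes were expressed above background in all 5 groups, with group means from 5.84 to 12.33 and a median SD of 0.11 over 4 arrays. Separate cultures are not named in the labels for the arrays of a group, so p-values measure only the spread between these arrays, which may be technical.

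Promoter sequences were available for 33 of the 39 genes from RefSeq (mouse build GRCm38.p6), each as the 250 bases before and 50 bases after a transcript start. Both strands were searched for the letters CACGTG (the E-box that MYC and its partners are known to bind), CCGGAAGT (an ETS-type site), TCTCGCGA, AAGATGGCG (YY1 type), GCGCATGCG (NRF1 type) and TTGCATCA (ATF4 type). CACGTG overlaps none of the others. It was found in 6 of the 33 genes (18.2%: Ltv1, Mybbp1a, Nop2, Pes1, Utp20, Wdr43), against 9.57% of the 14749 tested genes with a promoter and 7.15% of all windows. CCGGAAGT was found in 8 genes (24.2%: Gar1, Heatr1, Ltv1, Nhp2, Noc2l, Pwp2, Rrp15, Wdr74), against 6.07% of tested genes and 3.89% of windows. TCTCGCGA was found in 2 genes (Nop14 and Nop58, 6.06% against 1.76% of tested genes and 0.995% of windows) and GCGCATGCG in Nob1 (3.03% against 2.88% of tested genes and 1.75% of windows). AAGATGGCG and TTGCATCA were in none of the 33 genes, and in 2.33% and 0.827% of tested genes (1.40% and 0.895% of windows). A match is a run of letters, not a shown binding site.

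The stretches with CACGTG are printed for 3 genes that rose in both lines, from 100 bases before the start to 30 after it, with the motif in capitals.
Nop2 (chr6:125131783-125131912, + strand): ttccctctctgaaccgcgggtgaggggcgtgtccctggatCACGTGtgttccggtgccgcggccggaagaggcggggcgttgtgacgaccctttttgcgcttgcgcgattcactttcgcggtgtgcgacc
Pes1 (chr11:3963875-3964004, + strand): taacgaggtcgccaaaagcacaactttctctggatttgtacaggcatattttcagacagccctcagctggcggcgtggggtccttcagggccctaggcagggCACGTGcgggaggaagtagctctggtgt
Wdr43 (chr17:71616115-71616244, + strand): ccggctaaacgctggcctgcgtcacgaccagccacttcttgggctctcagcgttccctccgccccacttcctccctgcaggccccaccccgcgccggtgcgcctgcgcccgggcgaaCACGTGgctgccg

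The same stretch is printed for 4 genes picked from the 8 with CCGGAAGT, and for Nop14. Nop14 holds TCTCGCGA on both strands (TCGCGAGA on the printed one). The 4 picked genes rose more in A2/12 than in E46, as did Heatr1 and, by little, Ltv1, while Gar1 and Rrp15 rose more in E46. Among all 39 genes 28 rose more in A2/12, and a link of these letters to the lines was not tested. Pwp2 holds CCGGAAGT at 2 places.
Noc2l (chr4:156235915-156236044, + strand): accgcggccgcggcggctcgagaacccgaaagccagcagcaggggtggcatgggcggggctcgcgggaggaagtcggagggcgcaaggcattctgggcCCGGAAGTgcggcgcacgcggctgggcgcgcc
Nhp2 (chr11:51619673-51619802, + strand): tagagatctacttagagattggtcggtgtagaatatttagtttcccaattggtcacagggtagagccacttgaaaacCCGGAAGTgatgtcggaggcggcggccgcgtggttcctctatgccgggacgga
Wdr74 (chr19:8735739-8735868, + strand): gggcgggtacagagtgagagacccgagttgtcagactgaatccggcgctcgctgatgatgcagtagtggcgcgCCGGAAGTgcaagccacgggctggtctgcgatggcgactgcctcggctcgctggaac
Pwp2 (chr10:78185120-78185249, - strand): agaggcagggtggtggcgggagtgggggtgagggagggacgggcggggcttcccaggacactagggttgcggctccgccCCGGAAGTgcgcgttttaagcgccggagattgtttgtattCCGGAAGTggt
Nop14 (chr5:34660119-34660248, - strand): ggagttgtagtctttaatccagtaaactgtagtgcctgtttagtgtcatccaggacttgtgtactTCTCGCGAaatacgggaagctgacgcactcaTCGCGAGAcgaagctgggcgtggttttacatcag

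The 250 bases before the start are printed for the genes with the largest change in each line, Gnl3 in E46 and Rrp9 in A2/12. Neither window holds any of the 6 searched runs, so nothing is in capitals.
Gnl3 (chr14:31019132-31019381, - strand): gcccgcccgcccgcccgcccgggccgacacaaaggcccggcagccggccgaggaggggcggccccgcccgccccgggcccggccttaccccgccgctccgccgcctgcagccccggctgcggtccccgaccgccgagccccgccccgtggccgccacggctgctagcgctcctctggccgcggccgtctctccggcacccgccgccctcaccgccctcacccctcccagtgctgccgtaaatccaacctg
Rrp9 (chr9:106477059-106477308, + strand): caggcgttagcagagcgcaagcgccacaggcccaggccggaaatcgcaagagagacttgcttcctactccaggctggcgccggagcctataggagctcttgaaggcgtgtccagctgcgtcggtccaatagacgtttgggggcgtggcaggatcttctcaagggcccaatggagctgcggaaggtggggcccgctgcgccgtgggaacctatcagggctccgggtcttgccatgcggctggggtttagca

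Exposure of E46 cells to serotonin labelled 100 raised nearly all of the nucleolar genes. Of 39 measured, 38 were called higher than in controls (adjusted p below 0.05 over all genes) and 0 lower, while 20.3% of all genes were called higher and 19.3% lower. The median change of the 39 genes was 1.08 on the log2 scale, a fold of 2.12, against -0.003 over all genes. In 24 genes the change was at least 2-fold, and 2.31% of all genes were called higher at that size. Every array of the exposed group lay above every control array for 38 genes, which held for 21% of all genes. Bop1 was the only gene not called, with a change of 0.02. In bulk RNA a change in the make-up of the cells and a change in RNA per cell cannot be told apart.

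In the line labelled unresponsive the same genes rose as well. All 39 were called higher in A2/12 at serotonin labelled 100 and 0 lower, against 24.8% and 21.1% of all genes. The median change was 1.27, a fold of 2.41, against 0.002 over all genes. The change was at least 2-fold in 28 genes (4.34% of all genes were called higher at that size), and the arrays of the groups did not overlap for any of the 39 (23.4% of all genes lay higher without overlap). Of the 39 genes 38 were called higher in both lines, as were 16% of all genes.

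**Figure D1:**
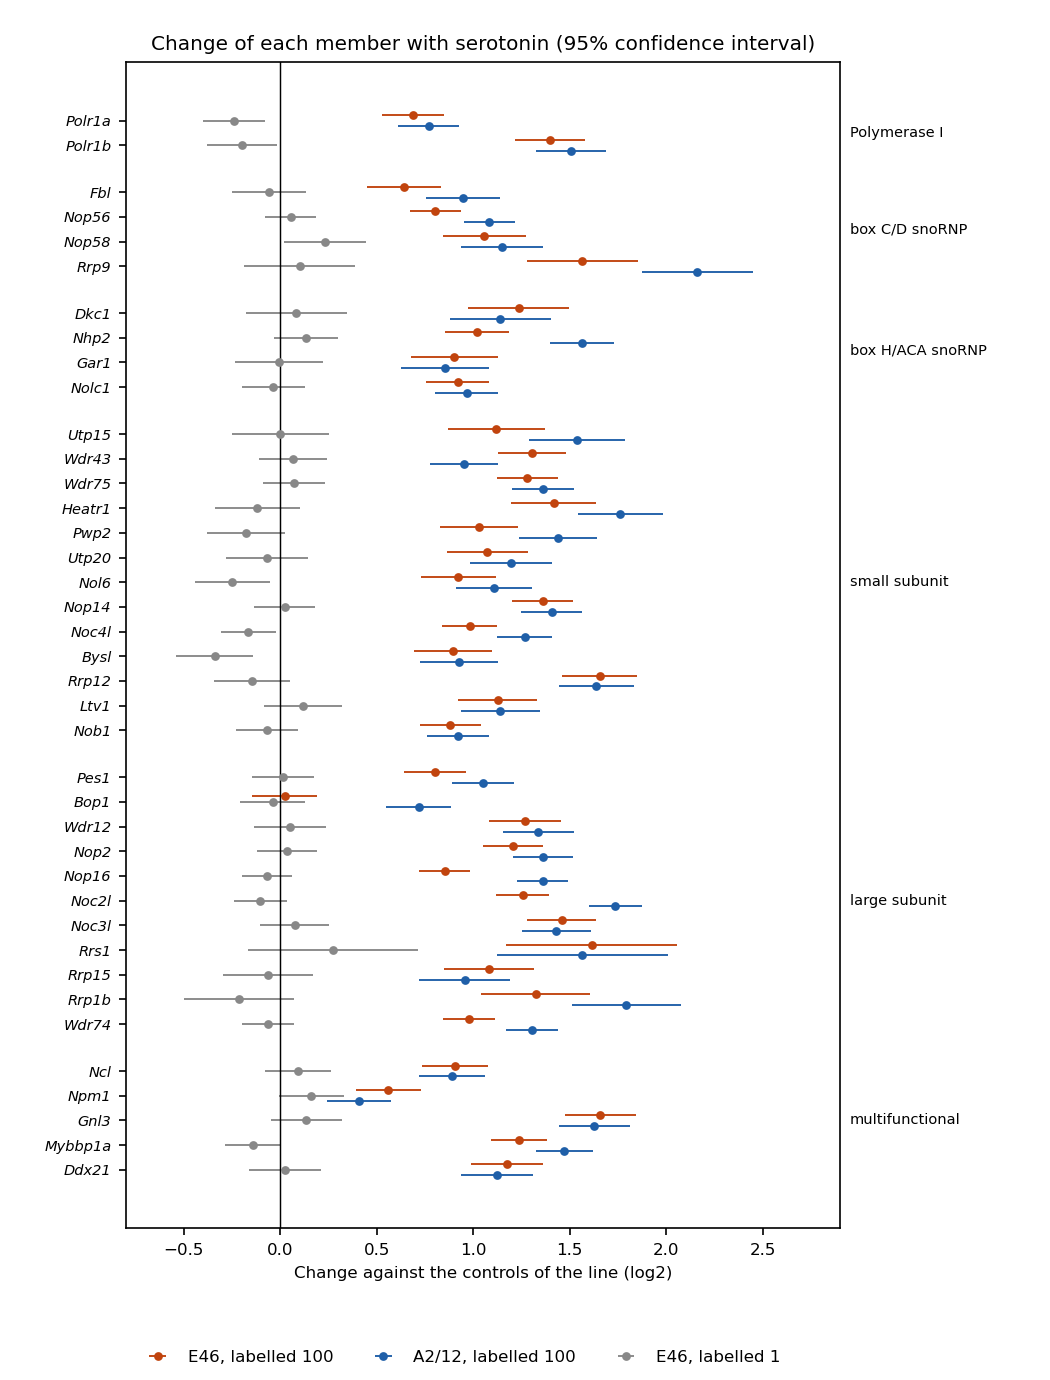
Change of each of the 39 genes (log2, serotonin against control of the same line; points are estimates and bars are 95% confidence intervals from the fit to 20 arrays), ordered by role, for E46 at the labelled 1 and 100 and A2/12 at the labelled 100. The labelled 1 stays between -0.34 and 0.27, while at the labelled 100 the intervals of all genes in both lines lie right of 0 except that of Bop1 in E46, which spans 0 (-0.15 to 0.19).

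At serotonin labelled 1 no nucleolar gene was called in E46 cells. The count was 0 higher and 0 lower, and 1 gene of all 18820 was called in each direction (0.00531%). An unadjusted limma p below 0.05 was found for 6 of the 39 genes, 1 higher (Nop58, 0.23) and 5 lower, and for 2993 of all genes. The changes ran from -0.34 for Bysl (95% confidence interval -0.54 to -0.14, adjusted p = 0.183) to 0.27 for Rrs1 (-0.17 to 0.71), with a median of -0.01 against -0.04 over all genes. In Bysl and Polr1a the 4 exposed arrays lay below the 4 controls, as in 4.76% of all genes, and in 0 genes did they lie above them (1.64% of all genes). Without replicate 2 of the labelled 1 group Bysl was called lower (change -0.40, adjusted p = 0.0496). Between the doses, 38 of 39 genes were higher at the labelled 100 than at the labelled 1 (23.6% of all genes higher, 17.8% lower), with a median change of 1.15 and Bop1 again not called. The change was at least 2-fold in 26 genes (2.85% of all genes were called higher at that size), and the arrays did not overlap in 38 (22.1%).

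**Figure D2:**
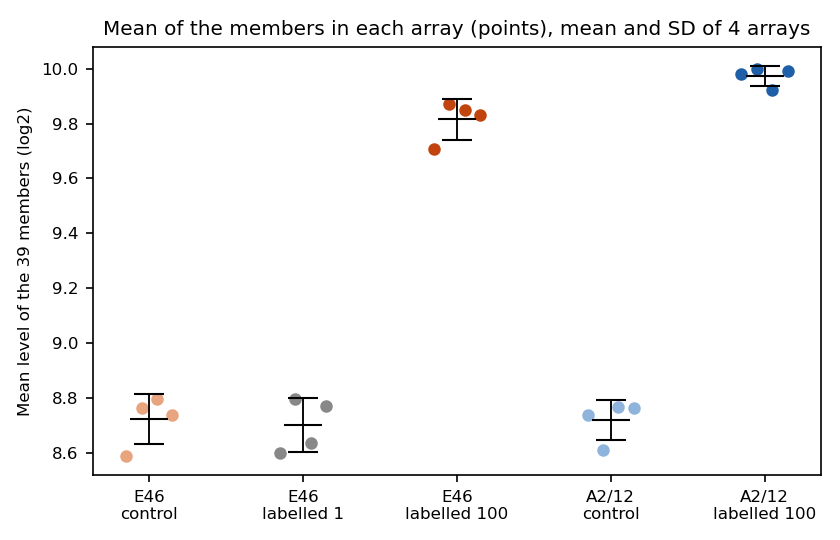
Mean log2 level of the 39 genes in each of the 20 arrays (points), with the group mean and SD over 4 arrays as bars. Controls and the labelled 1 group lie between 8.59 and 8.80, the E46 arrays at the labelled 100 between 9.71 and 9.87 and the A2/12 arrays at 100 between 9.92 and 10.00.

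The mean over the 39 genes set the labelled 100 arrays apart from all others without overlap, while controls and the labelled 1 group overlapped. It was 8.59 to 8.80 in E46 controls, 8.60 to 8.80 at the labelled 1 and 9.71 to 9.87 at the labelled 100. In A2/12 it was 8.61 to 8.77 in controls and 9.92 to 10.00 with serotonin. Within the untreated and labelled 1 groups the lowest arrays were those with the lowest upper quartile over all probe sets (E46 control 1, labelled 1 replicates 1 and 3, A2/12 control 2). Without these 4 arrays the counts stayed at 38 of 39 in E46 and 39 of 39 in A2/12, with medians of 1.01 and 1.23. Without the 2 control arrays that carried other cell types' markers the counts were again 38 and 39, with medians of 1.14 and 1.25.

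Among arrays of position number 5 alone the medians were 1.2 in E46 and 1.21 in A2/12, at position 7 they were 1.00 and 1.37, and at position 9 they were 1.05 and 1.23. Each of these comparisons has at least 1 arm of a single array: the exposed arm at position 5, the control arm at position 7 and both arms at position 9. They are therefore given as sizes, and their counts of calls bear little on the result. Rows B and F hold both conditions of a line. In row B the mean of the 39 genes was 8.74 in the E46 control array and 9.71 and 9.87 in the exposed ones, and in row F it was 8.76 in the A2/12 control array and 9.98 and 10.00 in the exposed ones.

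Transcription of the ribosomal RNA genes was represented by the 2 largest subunits of RNA polymerase I. Polr1b, the second largest, was at 8.25, 8.37, 8.2 and 8.25 in E46 controls and at 9.61, 9.74, 9.64 and 9.68 with serotonin labelled 100, a change of 1.40 ± 0.09 (SE). In A2/12 it rose from 9.15 ± 0.12 (SD, n = 4) to 10.66 ± 0.07, by 1.51. Polr1a, the largest subunit, rose less, by 0.69 in E46 (from 8.64 ± 0.08 to 9.33 ± 0.04) and by 0.77 in A2/12 (from 9.26 ± 0.14 to 10.03 ± 0.06). Both genes were lower in E46 controls than in A2/12 controls, Polr1a by 0.62 and Polr1b by 0.89 (adjusted p = 9.57e-07 and 3.85e-08), and the 4 arrays of one line did not overlap those of the other.

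Of the other polymerase I subunits and initiation factors 10 of 12 rose in E46 and 1 fell, and 11 rose in A2/12 with 0 falling (median 0.54 and 0.58). Among all genes 20.3% were called higher and 19.3% lower in E46, and 24.8% and 21.1% in A2/12. Polr1e, a polymerase I subunit, changed by 1.03 and 1.68. Taf1a, part of the promoter selectivity factor, changed by 1.13 and 1.32, and Rrn3, the factor that makes the polymerase ready to initiate, by 0.80 and 0.95. Polr1h (listed on the array under its older symbol) fell in E46 by 0.38 (adjusted p = 0.00319), a call lost after median centring of the arrays, and was at -0.05 in A2/12. This gene and the others below that fell or were not called are named after their values were seen. Polr1d was not called in E46 (0.24).

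The genes for core proteins of the box C/D particles, which guide methylation of ribosomal RNA, rose in both lines. Rrp9, a protein of the U3 particle needed for the first cuts, was at 7.67, 8.14, 7.90 and 7.88 in E46 controls and at 9.43, 9.56, 9.48 and 9.37 with serotonin, a fold of 2.96. In A2/12 it went from 8.19, 7.45, 7.92 and 7.65 to 9.89, 9.84, 10.27 and 9.84, a fold of 4.47 and the largest change of any of the 39 genes in that line (2.16 ± 0.14). The scaffold protein Nop56 was at 10.77, 10.89, 10.93 and 10.85 in E46 controls and 11.55, 11.74, 11.69 and 11.67 with serotonin. In A2/12 Nop56 went from 10.69, 10.84, 10.82 and 10.80 to 11.85, 11.91, 11.83 and 11.89. The groups did not overlap for either gene in either line. Nop58, the partner of Nop56, rose by 1.06 and 1.15, and the methyltransferase fibrillarin (Fbl) by 0.64 and 0.95. A second Fbl probe set gave 0.63 and 0.90.

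The box H/ACA particles guide the change of uridine to pseudouridine. Nhp2 was at 8.33, 8.39, 8.37 and 8.48 in E46 controls and at 9.27, 9.41, 9.46 and 9.50 with serotonin (change 1.02 ± 0.08). In A2/12 it was at 8.73, 8.35, 8.51 and 8.5 in controls and at 10.00, 10.10, 10.06 and 10.20 with serotonin (1.56 ± 0.08). Controls of both lines were at like levels, and the exposed arrays of A2/12 all lay above those of E46. The pseudouridine synthase Dkc1 rose by 1.23 in E46 and 1.14 in A2/12, Gar1 by 0.90 and 0.85, and the particle chaperone Nolc1 by 0.92 and 0.96.

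Of 10 further particle and assembly factors 7 rose in E46 and 8 in A2/12 (median 0.70 in both). The share of all genes called higher was 20.3% in E46 and 24.8% in A2/12, and the share called lower 19.3% and 21.1%. Naf1, which assembles H/ACA particles, changed by 1.27 and 1.46, and Nufip1, which assembles C/D particles, by 1.03 and 1.18. Pih1d1, a cochaperone of particle assembly, was at -0.08 in E46 and fell by 0.54 in A2/12. Nop10 and Snu13 were not called in E46 (0.05 and 0.04), nor Coil in A2/12 (0.27).

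All 13 measured small subunit factors rose in both lines, by 0.88 (Nob1) to 1.65 (Rrp12) in E46 and by 0.92 (Nob1) to 1.76 (Heatr1) in A2/12. Called higher were 20.3% of all genes in E46 and 24.8% in A2/12. Rrp12, which works in small subunit maturation and export, was at 6.68, 6.91, 6.72 and 6.78 in E46 controls, at 6.43, 6.65, 6.58 and 6.84 with the labelled 1 and at 8.26, 8.51, 8.49 and 8.45 with the labelled 100. In A2/12 it went from 7.0, 6.56, 6.83 and 6.75 to 8.34, 8.46, 8.45 and 8.43. Controls and the labelled 1 group overlapped, and the labelled 100 groups of both lines ended at the same level, with means of 8.43 and 8.42.

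The processome proteins that load first onto the precursor include Wdr75, Wdr43, Heatr1 and Utp15. Wdr75 was at 8.84, 9.05, 9.15 and 9.10 in E46 controls and at 10.19, 10.42, 10.34 and 10.31 with serotonin, a change of 1.28 ± 0.08. In A2/12 it changed by 1.36, from 9.09 ± 0.10 to 10.45 ± 0.07. Heatr1 changed by 1.42 in E46 and 1.76 in A2/12, and Utp15 by 1.12 and 1.54. Wdr43 changed by 1.30 in E46 (from 9.27 ± 0.05 to 10.57 ± 0.11) and 0.95 in A2/12 (from 9.54 ± 0.08 to 10.49 ± 0.15), so that both lines ended near the same level.

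Nop14 and its partner Noc4l act later in the processome. Nop14 was at 8.31, 8.43, 8.22 and 8.42 in E46 controls and at 9.63, 9.76, 9.72 and 9.71 with serotonin, and it changed by 1.36. In A2/12 Nop14 went from 8.22, 8.11, 8.26 and 8.22 to 9.60, 9.75, 9.45 and 9.64, by 1.41. No exposed array of Nop14 overlapped a control of its line. Noc4l was at 8.52, 8.69, 8.64 and 8.66 in E46 controls and at 9.60, 9.59, 9.64 and 9.60 with serotonin. In A2/12 Noc4l went from 8.69, 8.41, 8.49 and 8.45 to 9.84, 9.72, 9.81 and 9.73. The groups did not overlap in either line, and the E46 arrays at the labelled 100 had an SD of 0.02, the smallest of any of the 39 genes in any group. Pwp2, of a second processome module, was at 7.72, 7.87, 7.91 and 8.02 in E46 controls and at 8.81, 8.96, 8.94 and 8.93 with serotonin, and in A2/12 it went from 7.79, 7.41, 7.70 and 7.70 to 9.03, 9.12, 9.14 and 9.08. Utp20 changed by 1.07 and 1.19, Nol6 by 0.92 and 1.11, and the maturation factors Bysl and Ltv1 by 0.89 and 0.93 and by 1.13 and 1.14. The endonuclease Nob1, which makes the last cut of small subunit rRNA, had the smallest change of these genes in both lines.

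Of 39 other small subunit factors 38 rose in each line (median 0.84 in E46 and 0.98 in A2/12), against 20.3% and 24.8% of all genes. Rcl1, a processome protein, changed by 1.09 and 1.30, and Utp4 by 1.03 and 1.15. Nol7 was the exception in both lines, at -0.08 and -0.05.

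**Figure D3:**
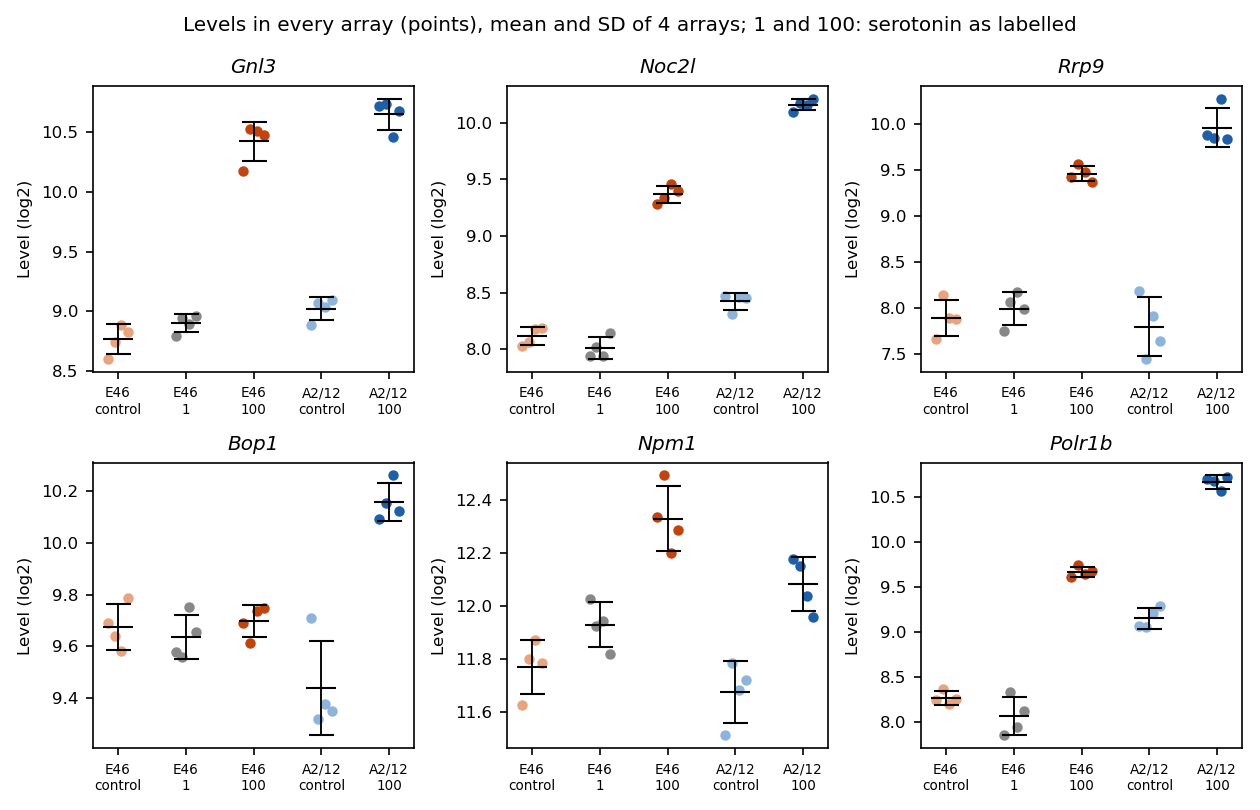
Log2 level in every array (points) with the mean and SD of 4 arrays for 6 genes (Gnl3, Noc2l, Rrp9, Bop1, Npm1 and Polr1b) in 5 groups (E46 control, labelled 1 and labelled 100, A2/12 control and 100); each panel has its own vertical range. The labelled 100 groups lie above the controls of their line without overlap except for Bop1 in E46, where controls span 9.58 to 9.79 and exposed arrays 9.61 to 9.75.

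Of 11 large subunit factors 10 rose in E46 and 11 in A2/12, against 20.3% and 24.8% of all genes called higher. Noc2l, which travels with the early large subunit particle, was at 8.03, 8.06, 8.18 and 8.19 in E46 controls and at 9.28, 9.34, 9.46 and 9.40 with serotonin, a fold of 2.39. In A2/12 Noc2l went from 8.47, 8.31, 8.46 and 8.45 to 10.10, 10.18, 10.16 and 10.21, a fold of 3.33. These were the smallest adjusted p-values among the 39 genes in both lines (7.96e-12 and 2.58e-14). Noc3l, its relative, was at 8.59, 8.80, 8.86 and 8.82 in E46 controls and at 10.06, 10.33, 10.27 and 10.25 with serotonin, and changed by 1.46 in E46 and 1.43 in A2/12.

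Nop2, a methyltransferase of large subunit rRNA, was at 9.04, 9.35, 9.23 and 9.32 in E46 controls and at 10.34, 10.46, 10.49 and 10.46 with serotonin. Its change was 1.2 in E46 and 1.36 in A2/12. Nop16 was at 10.09, 10.06, 10.01 and 10.06 in E46 controls and at 10.89, 10.85, 11 and 10.88 with serotonin, and in A2/12 it went from 10.15, 10.01, 10.00 and 10.05 to 11.37, 11.47, 11.31 and 11.49. The controls of the lines overlapped for Nop16 while the exposed arrays did not. Wdr74, a large subunit factor that works with the nuclear exosome, was at 9.49, 9.37, 9.41 and 9.49 in E46 controls and at 10.31, 10.44, 10.49 and 10.44 with serotonin. In A2/12 Wdr74 was lower in controls, at 9.06, 9.06, 9.08 and 8.99, and was at 10.35, 10.29, 10.39 and 10.39 with serotonin.

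Pes1, Bop1 and Wdr12 form 1 complex of large subunit assembly, and they did not move alike. Wdr12 rose by 1.27 in E46 and 1.34 in A2/12, and Pes1 by 0.80 and 1.05. Bop1 was at 9.69, 9.64, 9.58 and 9.79 in E46 controls, at 9.58, 9.56, 9.75 and 9.66 at the labelled 1 and at 9.69, 9.61, 9.74 and 9.75 at the labelled 100. The 3 E46 groups overlapped fully, and the change at the labelled 100 had a 95% confidence interval of -0.15 to 0.19 (adjusted p = 0.874). In A2/12 Bop1 went from 9.71, 9.32, 9.38 and 9.35 to 10.09, 10.15, 10.26 and 10.12, a change of 0.72 ± 0.08, with no overlap. Bop1 in E46 was not called under any scaling tried, with changes from -0.01 after quantile normalization to 0.15 after median centring. A second probe set of Wdr12 rose like the first, while a second one of Pes1, near background, did not (-0.21 in E46 and 0.13 in A2/12).

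Rrs1, which helps bring the small ribosomal RNA 5S into the large subunit, rose by 1.61 in E46 and 1.57 in A2/12 and was the most variable gene (SD 0.64 in E46 controls, from 5.19 to 6.72). Rrp1b changed by 1.32 and 1.79, and Rrp15 by 1.08 and 0.95. Of 45 further large subunit factors 43 rose in E46 and 44 in A2/12 (median 0.78 and 0.92), against 20.3% and 24.8% of all genes. Ppan, a partner in early assembly, changed by 1.53 and 1.57 and Nol8 by 1.36 and 1.66. Those not called were Rrp1 (0.14) and Gnl3l (0.12) in E46 and Ddx55 (0.14) in A2/12.

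Of the 5 genes of nucleolar proteins with several roles, Gnl3 (nucleostemin, a GTPase known from stem and tumour cells) changed most in E46. It was at 8.60, 8.74, 8.89 and 8.83 in controls and at 10.18, 10.53, 10.51 and 10.48 with serotonin, a fold of 3.16. In A2/12 Gnl3 went from 8.89, 9.08, 9.04 and 9.09 to 10.72, 10.74, 10.46 and 10.68, a fold of 3.09. Exposed and control arrays lay far apart in both lines. Mybbp1a, a nucleolar protein that binds transcription factors, was at 9.25, 9.46, 9.39 and 9.48 in E46 controls and at 10.58, 10.64, 10.65 and 10.65 with serotonin, a change of 1.24. In A2/12 Mybbp1a went from 9.53, 9.37, 9.43 and 9.49 to 10.85, 11.01, 10.87 and 10.98, a change of 1.47. The helicase Ddx21, which couples polymerase I and snoRNAs, rose by 1.17 and 1.12.

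The genes of the abundant nucleolar proteins moved less, and whether their level bears on this was not tested. Nucleolin (Ncl) rose by 0.90 in E46 and 0.89 in A2/12. A second Ncl probe set, below the background level, gave 0.11 and 0.30. Nucleophosmin (Npm1), the histone chaperone of the granular nucleolus, had the smallest called change in both lines, from 11.77 ± 0.10 to 12.33 ± 0.12 in E46 and from 11.67 ± 0.12 to 12.08 ± 0.10 in A2/12. All 4 probe sets of Npm1 rose, by 0.52 to 0.72 in E46 and 0.41 to 0.56 in A2/12. The Npm1 call in A2/12 was lost against a 1.2-fold margin (adjusted p = 0.142). Within position numbers 5, 7 and 9 its change in A2/12 was 0.42, 0.28 and 0.47.

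**Figure D4:**
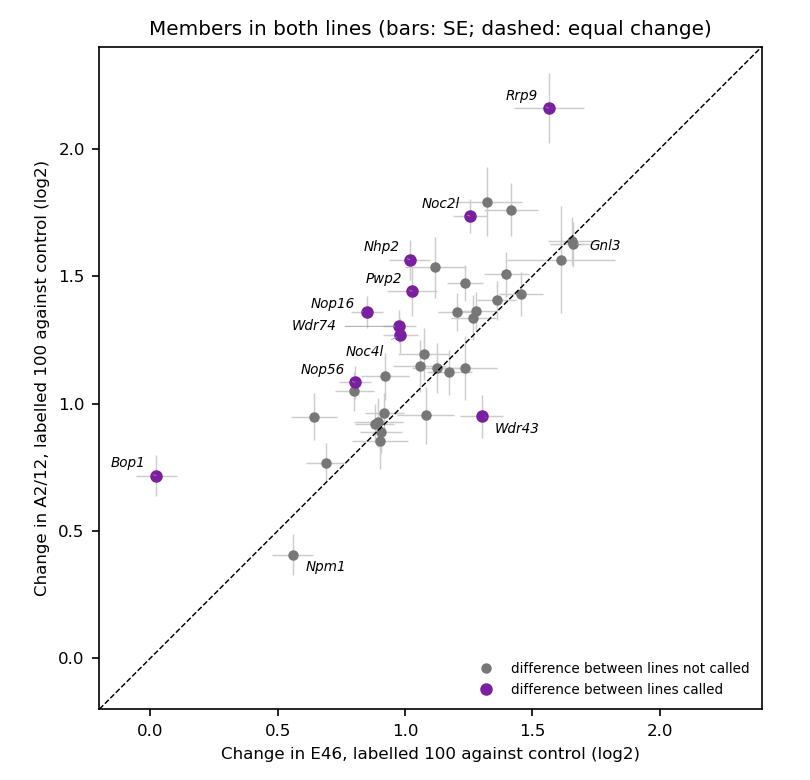
Change at serotonin labelled 100 in A2/12 (vertical axis, log2) against that in E46 (horizontal axis, log2) for the 39 genes, with SE bars, the line of equal change dashed and the 10 genes whose changes differed between the lines in purple. Most points lie near or above the dashed line, and Bop1 lies at 0.02 in E46 and 0.72 in A2/12.

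The responses of the lines were compared gene by gene with the difference of the changes. Of 39 genes 9 had a smaller change in E46 than in A2/12 and 1 a larger one, against 10.9% and 11.1% of all genes. The 9 became 5 without E46 control replicate 2, without E46 control replicate 3 or without E46 replicate 1 at the labelled 100. The median difference was -0.09 against -0.02 over all genes. Bop1 differed most (-0.69 ± 0.11, adjusted p = 9.92e-05), followed by Rrp9 (-0.60 ± 0.19, 0.0319), Nhp2 (-0.55 ± 0.11, 0.000974), Nop16 (-0.51 ± 0.09, 0.000176) and Noc2l (-0.48 ± 0.09, 0.000598). Pwp2 (-0.41), Wdr74 (-0.33), Noc4l (-0.29) and Nop56 (-0.28) also rose less in E46, and Wdr43 rose more (0.35). For Bop1, Nhp2, Nop16, Noc2l and Wdr74 the call held when any single array was left out, while those for Nop56, Rrp9, Pwp2, Noc4l and Wdr43 were lost without at least 6 different single arrays each. Within position numbers 5, 7 and 9, where arms are single arrays, the differences of Bop1 were -0.73, -0.71 and -0.74.

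Across the 39 genes the changes in both lines, which share no arrays, had a Pearson r of 0.76 and a Spearman rho of 0.79 (r = 0.77 without Bop1), given as a description since genes are not independent replicates. The change was larger in A2/12 for 28 genes and in E46 for 11, and 52.4% of all genes changed more toward higher values in A2/12. For Gnl3, Rrp12 and Noc3l the difference was 0.03, 0.02 and 0.03, with 95% confidence intervals of -0.23 to 0.29, -0.26 to 0.29 and -0.23 to 0.28.

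Without serotonin, the controls of the lines differed in 15 of the 39 genes. Of these 7 were higher in E46 controls and 8 lower, against 21.1% and 18.1% of all genes. Both counts are thus near the shares of all genes. Beside both polymerase I subunits, those lower in E46 were Bysl (-0.69), Noc2l (-0.31), Nol6 (-0.29), Wdr43 (-0.27), Gnl3 (-0.26) and Nop2 (-0.25). Those higher were Fbl (0.52), Nop58 and Wdr74 (0.39 each), Ltv1 and Rrp15 (0.35 each), Bop1 (0.24) and Ddx21 (0.23). The arrays of the lines did not overlap for 4 of the genes that were higher (18.5% of all genes) and 6 that were lower (17.1%). Without A2/12 control replicate 2 the 7 became 4. The array rows of the lines differ too, so row and line cannot be told apart.

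Other genes of ribosome production followed in part. Of the 14 exosome and trimming factors, which shorten rRNA ends, 11 rose and 1 fell in E46 and 13 rose in A2/12 (median 0.53 and 0.66). Exosc1 changed by 0.78 and 1.19. C1d, an exosome cofactor, fell in E46 by 0.29 (adjusted p = 0.00507), a call lost after quantile normalization and after median centring, and was at -0.01 in A2/12, and Exosc3 (0.19) and Mphosph6 (0.15) were not called in E46. Over the 5 lists of ribosome biogenesis factors without the 39 genes, 109 of 120 rose and 2 fell in E46, and 114 rose and 1 fell in A2/12. Their medians were 0.66 and 0.87. Over all genes 20.3% were called higher and 19.3% lower in E46, and 24.8% and 21.1% in A2/12.

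The genes of the cytosolic ribosomal proteins changed less than those of their assembly factors. In E46 controls their median level was 11.77, against 8.14 and 8.49 for the further small and large subunit factors. Whether level bears on the size of the change was not tested. Of the 72 ribosomal protein genes 49 rose in E46 and 51 in A2/12 and 0 fell, with medians of 0.23 and 0.31. Over all genes 20.3% were called higher and 19.3% lower in E46, and 24.8% and 21.1% in A2/12. Rpl30 changed by 0.84 and 1.08. At the labelled 1 none of these lists had a called gene in E46.

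Myc rose from 9.97 ± 0.09 to 11.69 ± 0.09 in E46 and from 9.77 ± 0.11 to 11.85 ± 0.03 in A2/12, and was at 9.97 ± 0.08 at the labelled 1. Its change was 1.72 ± 0.07 in E46 and 2.08 ± 0.07 in A2/12. Of the 12 genes of the MYC and MAX network 5 rose and 2 fell in E46, and 5 rose and 3 fell in A2/12. Over all genes 20.3% were called higher and 19.3% lower in E46, and 24.8% and 21.1% in A2/12. The counts that fell are thus near the shares of all genes. The 2 that fell in E46 were Mxd3 (-1.89) and Mxd4 (-1.11), which compete with MYC for MAX, and in A2/12 they changed by -2.15 and -2.58. Mycn also fell in A2/12 (-0.47) but lay near the background level. It went from 4.87 to 4.40, where the background was 4.36 in controls and 4.35 with serotonin. Mga rose by 0.58 and 0.91.

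Proliferation markers moved the other way. Of 11 measured 10 fell in each line and 0 rose, with medians of -0.59 in E46 and -0.81 in A2/12. For this list and those that follow, 19.3% of all genes were called lower in E46 and 21.1% in A2/12, and 20.3% and 24.8% higher. Mki67 went from 10.72 ± 0.14 to 9.72 ± 0.10 in E46 and from 10.63 ± 0.15 to 8.64 ± 0.19 in A2/12. Mesenchymal markers fell as well, 7 of 8 in E46 and 5 of 8 in A2/12, where 1 rose. Their mean level over 8 genes went from 8.56 to 8.73 in E46 controls to 6.89 to 7.54 in exposed arrays, and from 9.51 to 9.68 to 7.46 to 7.98 in A2/12. Of 8 astrocyte markers 6 fell in E46 and 5 in A2/12, while 6 lay above background in E46 controls and 4 in A2/12 controls. The A2/12 count was 4 under quantile normalization and under median centring. The E46 count was 5 under median centring. The proliferation, mesenchymal and astrocyte lists fell in the median where the nucleolar genes rose, and the part of these markers in the result was not tested. Of 12 neuron markers 2 fell in E46 and 4 in A2/12, where 19.3% and 21.1% of all genes were called lower, and the E46 count was 1 under quantile normalization and under median centring.

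**Figure D5:**
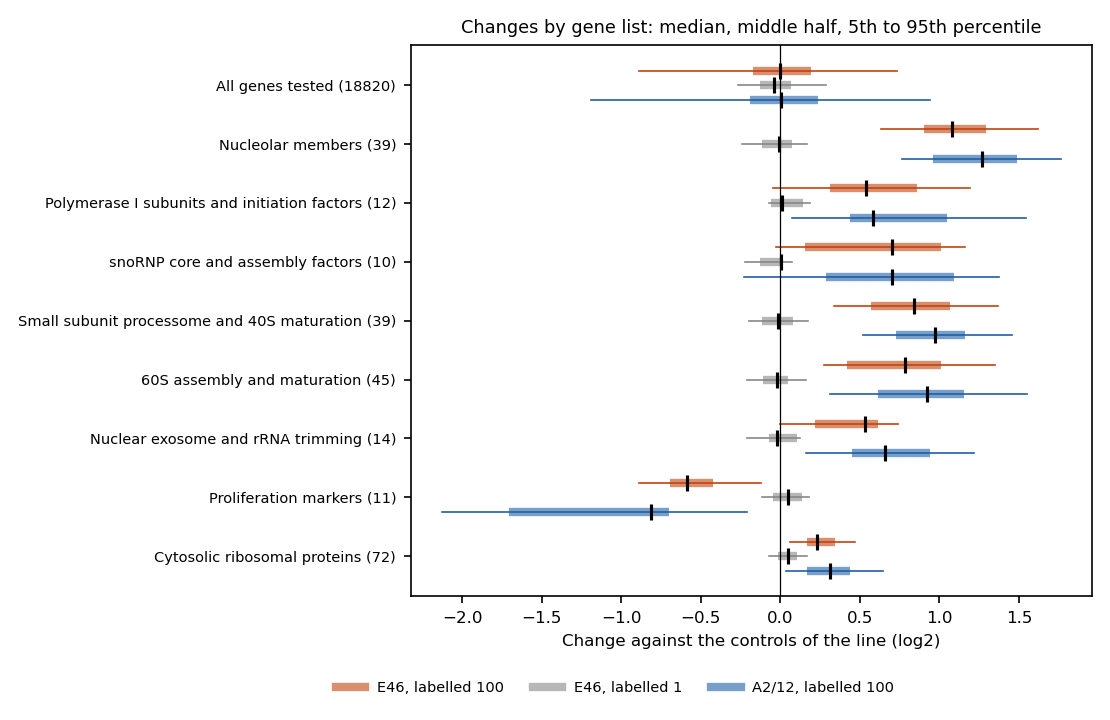
Median change (black ticks) with the middle part of the genes of each list (thick bars, quartile to quartile) and their 5th to 95th percentile (thin bars), in log2 against the controls of the line, for 3 comparisons. At the labelled 100 the nucleolar genes have a median of 1.08 in E46 and 1.27 in A2/12 against 0.23 and 0.31 for ribosomal proteins and -0.59 and -0.81 for proliferation markers.

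At the labelled 100 the median changes of the nucleolar genes, the 5 lists of further factors, the ribosomal proteins and the proliferation, mesenchymal and astrocyte markers kept their signs under quantile normalization and under median centring. Those of the neuron markers in both lines and of the MYC network in A2/12, which lay near 0, did not. The median of an array differed from that of controls by -0.12 with serotonin labelled 100 in E46 and by -0.16 in A2/12. Centring each array on its median moved the nucleolar medians to 1.2 and 1.43, with 38 and 39 genes called. Under that scaling 27.9% of all genes were called higher and 14.1% lower in E46, and 34.6% and 15.7% in A2/12. The medians of the proliferation markers were then -0.46 and -0.65.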

How the data were processed

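The authors deposited 1 table of log2 expression values per probe set for the 20 arrays, made with RMA per the submitters' processing notes (its version and settings are not given in the sources used here). Of 35556 probe sets, 21218 carried 1 gene symbol, 1881 several and 12457 none. The probe set with the highest mean over all arrays stood for each gene, which gave 18820 genes. Groups came from the sample titles. Each gene's 5 group means were estimated together by limma 3.58.1 (R 4.3.3), using the 20 arrays, 15 residual degrees of freedom and moderated variances, and p-values were adjusted by the Benjamini-Hochberg method over all genes. Calls needed an adjusted p below 0.05. The members and gene lists were chosen with earlier results of these data known. Every member may be named. Values in the control and labelled 100 arrays of a line are given for the 8 genes with the smallest adjusted p in that line. For the 8 with the smallest adjusted p of the difference they are given in both lines, and for some others in part. All labelled 1 arrays are printed for Rrp12 and Bop1 only. From the other lists up to 4 genes with the smallest adjusted p were eligible. Array number limits the precision. Simulated data had 200 of 18820 genes changed. On them the step for E46 at the labelled 100 recovered 10% of 1.2-fold, 88% of 1.5-fold and 96% of 2-fold changes. The difference between lines recovered 2%, 52% and 88%. Of the calls 6.96% and 3.23% were false in these 2 steps. In the data 20.3% of all genes were called higher and 19.3% lower for E46 at the labelled 100. The simulated shares need not hold with so many genes changed. Same-numbered arrays of different groups deviated together in 14 of 40 pairs (correlation above 0.1; range -0.55 to 0.41), so the numbers were not taken to pair the samples. Alternatives to the scaling, test, probe set choice, arrays used, array position and dose labels were run.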

Additional observations from a re-analysis of the deposited data

Results flagged for a closer look

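For 10 genes the responses of the lines to serotonin labelled 100 differed by the test of the difference itself, E46 minus A2/12 on the log2 scale. Of these 9 were lower and 1 higher, against 10.9% and 11.1% of all genes, so the share in both directions together is near that of all genes. They were Bop1 (-0.69), Rrp9 (-0.60), Nhp2 (-0.55), Nop16 (-0.51), Noc2l (-0.48), Pwp2 (-0.41), Wdr74 (-0.33), Noc4l (-0.29), Nop56 (-0.28) and Wdr43 (0.35).

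In 19 of 195 sets of 4 arrays, 1 array lay apart from the other 3 by more than Dixon's 95% critical value for the gap over the range, where chance gives about 1 in 20 sets, or 9.75. Of these 4 were in E46 replicate 1 at the labelled 100, which was lowest for Nol6 (9.63), Rrp1b (8.2), Gnl3 (10.18) and Mybbp1a (10.58). E46 control replicate 1 was lowest for Nop58 (8.72) and Ltv1 (7.67) and highest for Pes1 (9.16). In the labelled 1 group replicate 2 was highest for Dkc1 (9.03), Nop14 (8.55) and Noc4l (8.59), and replicate 3 was lowest for Gar1 (7.52) and Wdr12 (8.08). A2/12 control replicate 2 was lowest for Gar1 (7.38) and Noc2l (8.31), and A2/12 control replicate 1 was highest for Bop1 (9.71). A2/12 replicate 3 at 100 was highest for Rrp9 (10.27) and lowest for Utp20 (9.73). E46 replicate 2 at the labelled 100 was lowest for Polr1a (9.27), and E46 control replicate 3 was highest for Fbl (9.56).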

How the results depend on the processing

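The rise at serotonin labelled 100 kept 38 of 39 genes called in E46 and 39 of 39 in A2/12 whichever single array was left out (38 to 38 and 39 to 39). Over all settings except the exchange of the dose labels the medians ran from 0.97 to 1.2 in E46 and from 1.21 to 1.43 in A2/12. Counts fell within position number 9 alone, to 13 in E46 and 25 in A2/12, where each arm is 1 array; position numbers 5 and 7 also have arms of 1 array, the lone array is assumed to vary like the other groups, and counts within positions say little about stability. With the doses of the descriptions the counts were 0 higher for E46 at 100, 38 higher at 1, 0 higher and 38 lower for 100 against 1, and 0 higher and 38 lower for the difference between lines, since the labels exchange the groups. At the labelled 1, leaving out single arrays gave 0 to 1 genes lower and 0 to 0 higher. The difference between lines ranged from 5 to 12 genes lower and 0 to 1 higher over single arrays left out. It was 14 lower with array weights, 0 lower and 0 higher at position 5, 2 lower and 0 higher at position 7, 0 and 0 at position 9, 1 lower and 0 higher against a 1.2-fold margin, 0 higher after median centring, 0 higher without the 4 arrays of low upper quartile, and 5 lower and 0 higher without E46 control 3 and A2/12 control 4. Between the controls of the lines, leaving out single arrays gave 4 to 9 genes higher and 6 to 8 lower. The other values were 1 higher and 3 lower at position 5, 2 and 1 at position 7, 0 and 0 at position 9, 1 and 3 against the 1.2-fold margin, 12 higher with the upper quartile as a covariate, and 4 higher without E46 control 3 and A2/12 control 4. The cause of the other changes was not tested. The replicate block left the counts of called genes as they were, at 38, 0, 38 and 39 higher for E46 at 100, E46 at 1, 100 against 1 and A2/12, and 1 higher and 9 lower for the difference, where Noc4l lost its call. Apart from the exchange of the dose labels, no called change of a gene turned its sign. Bop1 in E46, which was not called, lay between -0.01 and 0.15. The difference between lines and the controls' comparison could not be fitted with each line alone.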
